A study of Caenorhabditis elegans with 10 samples.

Results

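Lipases release fatty acids from stored fat, and 7 lipase genes of Caenorhabditis elegans were followed here: the fasting-induced lipases fil-1 and fil-2, and the lysosomal lipases lipl-1, lipl-2, lipl-3, lipl-4 and lipl-5. The 7 genes were taken by symbol from 17118 genes with a probe set of their own, and each had 1 probe set, which passed the level filter that kept 12641 genes. They were listed with results of these arrays known, among them the low levels of fil-2 in the mutants. Their differences from wild type are therefore a description with no test.

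Whole worms, predominantly young adults, had been kept on plates for 2 generations before liquid culture, and 1 Affymetrix array per strain held RNA pooled from 3 biological replicates. The missense mutants were gas-1 (fc21, complex I), mev-1 (kn1, complex II) and isp-1 (qm150, complex III), grown on OP50 plates and then in K12 culture, and their control was N2 Bristol in the same cultures. The RNAi animals were N2 fed bacteria against 1 of 5 complex I genes in the presence of 5 mM IPTG: ndua-13 (C34B2.8), nduf-6 (F22D6.4), nuo-5 (Y45G12B.1), ndub-7 (D2030.4) or ndab-1 (Y56A3A.19). Their control was N2 on HT115 bacteria, whose label names neither IPTG nor an empty vector. All 8 mutants are thus labelled as defects of the electron transport chain, and each wild type is a single array.

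In C. elegans, fat is stored mainly in the intestine and epidermis. Cytosolic lipases act at the surface of lipid droplets, whereas acid lipases of the lipl family act in the lysosome, where droplets arrive by autophagy. In fed worms the repressor MXL-3 holds lipl genes down, and in fasted worms the TFEB homologue HLH-30 raises them. The fil genes were named for their induction by fasting, which in C. elegans depends on the endoplasmic reticulum stress sensor IRE-1 and the chaperone HSP-4. LIPL-4 is known for a lipid signal, carried by the binding protein LBP-8 to nuclear receptors including NHR-49, that extends lifespan.

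Before the lipases, the arrays themselves were examined. Of the genes targeted by RNAi, nuo-5, ndua-13, nduf-6 and ndub-7 stood at -0.95, -0.51, -0.25 and -0.18 (log2) in the arrays labelled for them, relative to the HT115 wild type. In the array labelled ndab-1 RNAi the target stood at 1.08, against its label, so RNAi arrays are named by their labels. The mutated genes gas-1, mev-1 and isp-1 stood at 0.39, -0.09 and 0.18 in their own arrays, relative to the K12 wild type; a missense allele need not lower its mRNA. The label of isp-1 cites the sequence name of mev-1. Yolk protein genes, expressed in the adult intestine, were high in all arrays (vit-2 between 13.92 and 14.92, log2). Markers of sperm and of moulting had the widest spread among the RNAi arrays. The summed level of 8 sperm genes ranged over 9.16 to 13.29 (log2) in RNAi animals, against 11.54 in the HT115 wild type, and over 11.88 to 12.84 in missense mutants, against 12.19 in the K12 wild type. The median difference of 10 moulting genes lay between -0.23 and 1.18 in RNAi animals and between -0.54 and -0.02 in missense mutants. In the missense mutants 9 of 9 pharynx muscle genes were below the K12 wild type in each array, with a summed level of 14.96 to 15.06, against 15.35. Of 12 body wall muscle genes, 11, 12 and 11 were lower in gas-1, mev-1 and isp-1. Of 14 neuron genes, 12 were higher in RNAi animals, with a summed level of 13.85 to 14.72, against 13.77 in the HT115 wild type, and the wild types differed in these genes by a median of 0.76, K12 over HT115. In missense mutants the neuron sum was 14.42 to 14.59, against 14.49 in the K12 wild type. The part of these markers in the lipase values was not tested. In whole worms, fewer cells of a type and less RNA per cell cannot be told apart.

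The fasting-induced lipase fil-1 was the member that differed most between arrays, with a range of 3.69 (log2). It stood at 4.73 (gas-1), 6.03 (mev-1) and 4.72 (isp-1), against 8.13 in the K12 wild type. All 3 missense mutants were below their wild type, with a mean of 5.16 ± 0.75 (SD, n = 3), a difference of -2.97 or 7.83-fold lower. In single arrays the gene was 10.6-fold lower in isp-1, 10.6-fold lower in gas-1 and 4.29-fold lower in mev-1. From the lowest difference up, fil-1 ranked 6 in gas-1 and 7 in isp-1 among 12641 genes, each a single pair of arrays without replicates.

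The RNAi animals were divided in fil-1. In the arrays labelled ndua-13, nduf-6, nuo-5, ndub-7 and ndab-1 RNAi its level was 6.94, 6.82, 5.01, 4.67 and 8.36, against 7.88 in the HT115 wild type. The arrays labelled nuo-5 and ndub-7 RNAi lay at the level of gas-1 and isp-1, those labelled nduf-6 and ndua-13 RNAi lay between, and that labelled ndab-1 RNAi was above both wild types. Set beside the targets, fil-1 stood at -0.94, -1.07, -2.87, -3.21 and 0.48 in the arrays labelled ndua-13, nduf-6, nuo-5, ndub-7 and ndab-1 RNAi, where the target itself stood at -0.51, -0.25, -0.95, -0.18 and 1.08. The RNAi mean was 6.36 ± 1.52 (SD, n = 5), a difference of -1.52 or 2.87-fold lower than the HT115 wild type. It was 4.07-fold lower without the array labelled ndab-1 RNAi and 2.14-fold lower without that labelled ndub-7 RNAi. Of the 5 RNAi arrays, that labelled ndub-7 also stood apart in stage markers, with 8 of 8 sperm genes and 10 of 10 moulting genes higher than in its wild type (medians 2.14 and 1.18) and 12 of 12 oocyte genes lower (median -0.82). The part of these markers in the fil-1 values was not tested.

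The second fasting-induced lipase, fil-2, was below the wild type of its culture in 8 of 8 mutants. Its level was 2.07 (gas-1), 2.34 (mev-1) and 2.19 (isp-1), against 3.77 in the K12 wild type. In the arrays labelled ndua-13, nduf-6, nuo-5, ndub-7 and ndab-1 RNAi it stood at 2.29, 2.64, 2.22, 2.23 and 2.84, against 4.87 in the HT115 wild type. No mutant overlapped either wild type. Among all genes tested, 6.76% were below their wild type in 8 of 8 mutants, and 2.4% had all 8 mutants below both wild types.

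The size of the fil-2 difference is uncertain. The level filter lay at 2.60, the 25th percentile of the mean levels of all probe sets, and fil-2 was under it in 6 of 10 arrays, all of them mutants. Its mean over the 10 arrays, 2.74, passed the filter through the wild types, where it is high, so that among genes passing in this way a difference had to appear. The missense mean was 2.20 ± 0.13 (SD, n = 3), 2.97-fold lower than the K12 wild type, and the RNAi mean was 2.44 ± 0.28 (SD, n = 5), 5.38-fold lower than the HT115 wild type. Against the wild type of the other culture the missense difference was -2.67 in place of -1.57, and the RNAi difference was -1.33 in place of -2.43. For comparison, lipl-8, a gene of the lipl family and not of the fil genes, did not pass the filter and stood between 2.33 and 2.35 in all 10 arrays.

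**Figure D1:**
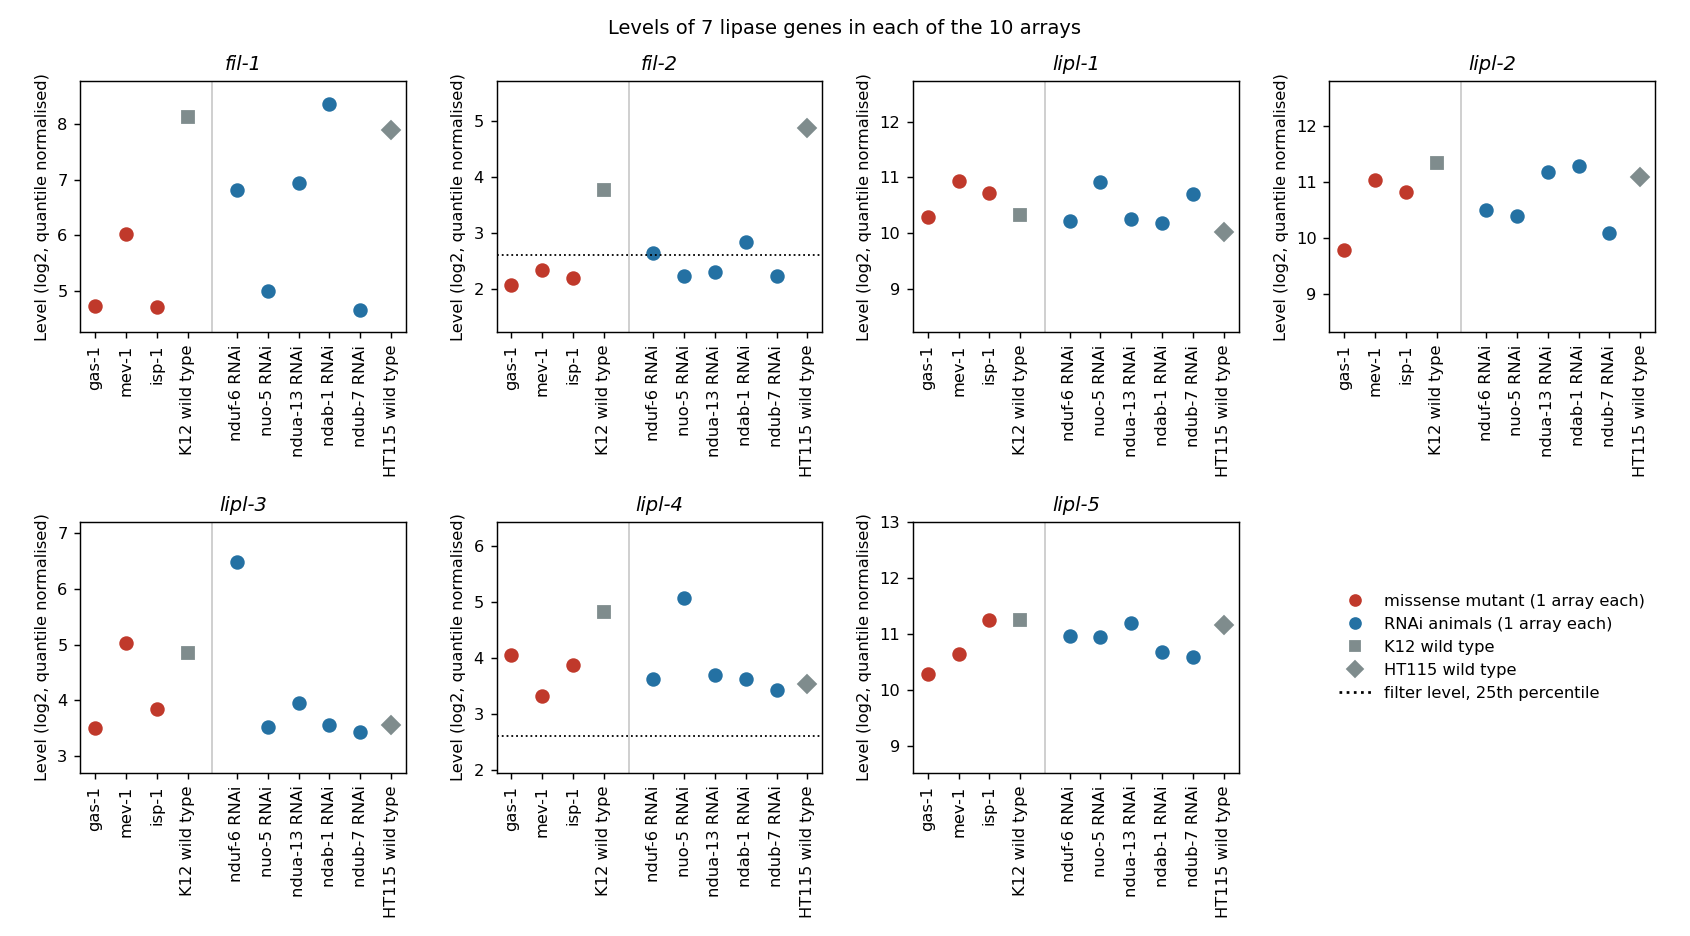
Level of each of the 7 lipase genes (y axis, log2 of the quantile-normalised signal, with the same span of units but its own range in each panel) in each of the 10 arrays (x axis), 1 point per array, with missense mutants left of the K12 wild type and RNAi animals left of the HT115 wild type. The dotted line, drawn where it falls in the panel, is the level filter of 2.60; fil-2 lay under it in 6 arrays, and fil-1 ranged over 3.69 units.

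Of the lysosomal lipases, lipl-2 varied in part with fil-1. In fasted C. elegans it is among the lipl genes that are induced. It stood at 9.78 (gas-1), 11.03 (mev-1) and 10.82 (isp-1), against 11.34 in the K12 wild type. All 3 missense mutants were lower, but the mean difference of -0.79 rested on gas-1, where lipl-2 was 2.94-fold lower, and was -0.41 without it. In RNAi animals (targets ndua-13, nduf-6, nuo-5, ndub-7 and ndab-1) its level was 11.18, 10.50, 10.40, 10.08 and 11.28, against 11.10 in the HT115 wild type. The arrays labelled ndua-13 and ndab-1 RNAi were slightly above the wild type and the other 3 below it, with 2.02-fold lower in ndub-7 RNAi. The RNAi mean of 10.69 ± 0.52 (SD, n = 5) differed from the wild type by -0.41, less than this SD, and by -0.26 without ndub-7 RNAi.

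Over the 10 arrays, the levels of fil-1 and lipl-2 had a Pearson's r of 0.80 and a Spearman's rho of 0.85, and r was 0.72 without the 2 arrays farthest from the median of fil-1. The arrays share 2 cultures and 2 wild types, and this correlation, chosen from 21 pairs, is a description. The levels of fil-1 and fil-2 had r = 0.715 and rho = 0.83, with fil-2 under the filter in 6 arrays. Over the 8 mutants alone r was 0.89 for fil-1 and fil-2, and 0.73 for fil-1 and lipl-2. Between the differences of the mutants from their own wild types r was -0.14 for fil-1 and fil-2. The arrays lowest in fil-1 (gas-1, isp-1, ndub-7 RNAi and nuo-5 RNAi) included the 3 lowest in lipl-2.

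The lysosomal lipase lipl-1, also induced by fasting in C. elegans, stood above wild type in most mutants. Its level was 10.29 (gas-1), 10.94 (mev-1) and 10.73 (isp-1), against 10.33 in the K12 wild type. For the targets ndua-13, nduf-6, nuo-5, ndub-7 and ndab-1 it was 10.25, 10.22, 10.91, 10.70 and 10.18, against 10.01 in the HT115 wild type. It was above the wild type in 7 of 8 mutants, by amounts between 0.17 and 0.90, and gas-1 stood at -0.04. The highest ratio was 1.87-fold, 187% of the wild type, in nuo-5 RNAi. Of all genes tested, 15.1% were above the HT115 wild type in 5 of 5 RNAi arrays, as lipl-1 was. The mean difference of the missense mutants, 0.32, was of the size of their SD (0.33, n = 3), and was 0.50 without gas-1 and 0.18 without mev-1. That of the RNAi animals, 0.44, exceeded their SD of 0.33 (n = 5), but the HT115 wild type was the lowest of the 10 arrays. Against the wild type of the other culture the RNAi difference was 0.12 and the missense difference 0.64. Over the 10 arrays lipl-1 and fil-1 had r = -0.68 and rho = -0.61, with r = -0.62 without the 2 farthest arrays. Between the differences of the 8 mutants from their own wild types r was -0.36 for this pair, and 0.79 for fil-1 and lipl-2.

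**Figure D2:**
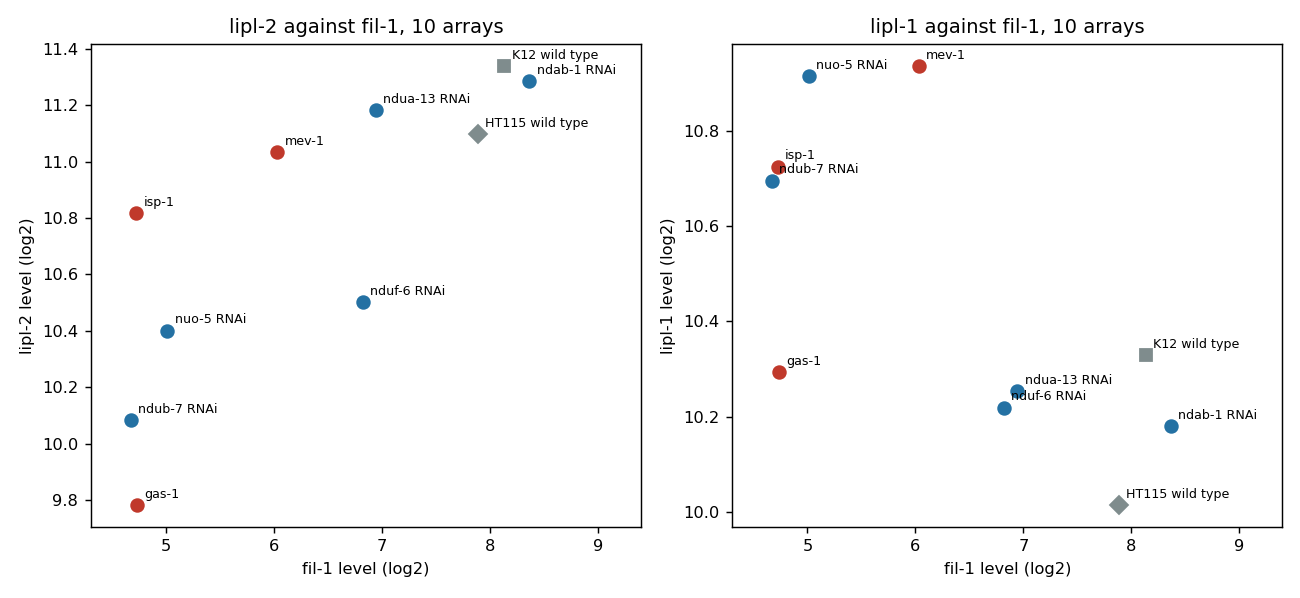
Levels of lipl-2 (left) and lipl-1 (right, both y axes in log2) against the level of fil-1 (x axis, log2), 1 labelled point per array, in red for missense mutants, blue for RNAi animals and grey for the 2 wild types (square K12, diamond HT115). Arrays low in fil-1 tended to be low in lipl-2 (r = 0.80) and high in lipl-1 (r = -0.68, but -0.36 between the differences of mutants from their own wild types), with gas-1 low in both lipl genes.

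The lysosomal lipase lipl-5, another member induced by fasting in C. elegans, spanned 0.97 (log2) over the 10 arrays, close to the 0.92 of lipl-1, the narrowest of the 7. It stood at 10.28 (gas-1), 10.64 (mev-1) and 11.25 (isp-1), against 11.25 in the K12 wild type. Thus gas-1 was 1.96-fold lower and mev-1 1.52-fold lower, while isp-1 was at the wild-type level. The missense mean difference of -0.53 was close to their SD of 0.49 (n = 3), and was -0.30 without gas-1 and -0.79 without isp-1. Its level for the RNAi targets ndua-13, nduf-6, nuo-5, ndub-7 and ndab-1 was 11.21, 10.97, 10.95, 10.60 and 10.68, against 11.17 in the HT115 wild type. Of these, 4 of 5 were lower, at most 1.49-fold, and the array labelled ndua-13 RNAi was at the wild-type level.

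For lipl-3, induced by fasting through HLH-30 in C. elegans, 1 array stood far from the rest. It was 6.47 in the array labelled nduf-6 RNAi, and 3.95, 3.53, 3.43 and 3.56 in those labelled ndua-13, nuo-5, ndub-7 and ndab-1 RNAi, against 3.56 in the HT115 wild type. The array labelled nduf-6 RNAi was 7.53-fold above the wild type, which ranked lipl-3 19 from the highest difference among 12641 genes, and without it the RNAi difference of 0.63 was 0.05. In the same array 6 of 8 sperm genes were lower (median -1.93), and the summed sperm level of 9.16 was the lowest of the RNAi arrays, while 12 of 12 oocyte genes were higher (median 0.36). Their part in the lipl-3 value was not tested. In the missense mutants lipl-3 stood at 3.51 (gas-1), 5.02 (mev-1) and 3.85 (isp-1), against 4.85 in the K12 wild type. Both gas-1 (2.53-fold) and isp-1 (2.00-fold) were lower and mev-1 was not. The missense difference of -0.73 was -1.17 without mev-1 and -0.42 without gas-1. It turned to 0.56 when set against the HT115 wild type, which stood 1.29 below the K12 wild type, and the RNAi difference turned to -0.66 when set against the K12 wild type. The probe set of lipl-3 is of the type that can match several transcripts.

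The gene lipl-4, whose product extends the lifespan of C. elegans when raised in the intestine, also depended on the culture of its control. It stood at 4.06 (gas-1), 3.31 (mev-1) and 3.87 (isp-1), against 4.82 in the K12 wild type. All 3 were lower, by 1.69-fold, 2.84-fold and 1.92-fold, with a mean difference of -1.07 and an SD of 0.39 (n = 3). The HT115 wild type, however, stood at 3.53, so that the same missense mean was 0.22 above it, and the RNAi mean was at -0.93 relative to the K12 wild type. In the array labelled nuo-5 RNAi lipl-4 stood at 5.07, 2.91-fold above the HT115 wild type. It was 3.70, 3.62, 3.43 and 3.62 in the arrays labelled ndua-13, nduf-6, ndub-7 and ndab-1 RNAi, between -0.10 and 0.16 of the wild type. Without the array labelled nuo-5 RNAi the RNAi difference of 0.36 was 0.06. The mean levels of lipl-3, 4.17, and lipl-4, 3.90, lay at the 39.9th and 38.5th percentiles of all probe sets, so both were low, though above the filter level in 10 of 10 arrays.

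**Figure D3:**
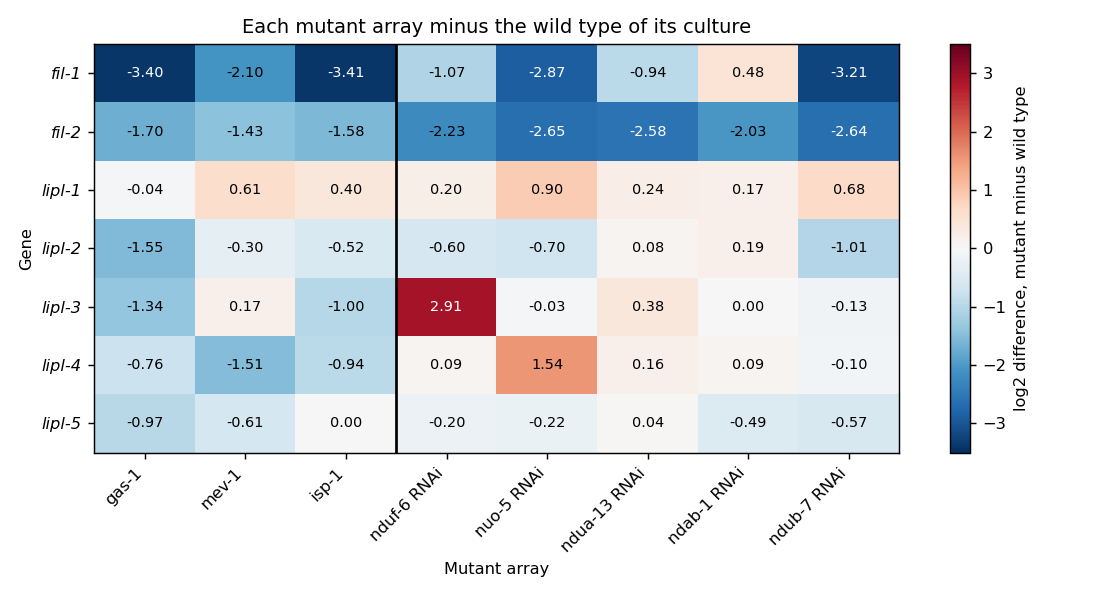
Difference in log2 level of each lipase gene (rows) between each mutant array (columns) and the wild type of its culture, printed in each cell and coloured from blue (lower in the mutant) to red (higher); the vertical line parts missense mutants from RNAi animals. The row of fil-2 is negative in 8 of 8 arrays and that of fil-1 in 7 of 8, and single high cells stand out for lipl-3 (2.91, nduf-6 RNAi) and lipl-4 (1.54, nuo-5 RNAi).

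Seen by array, each against the wild type of its culture, gas-1 held the most low members. In gas-1, 4 of 7 members were at least 2-fold lower than in the wild type (fil-1, fil-2, lipl-2 and lipl-3), while 2.82% of all genes tested were that much lower. In mev-1 the 3 members this low were fil-1, fil-2 and lipl-4 (3.09% of all genes), and in isp-1 they were fil-1, fil-2 and lipl-3 (2.22%). The low values of lipl-3 in gas-1 and isp-1 and of lipl-4 in mev-1 depended on the K12 control. Their levels were 3.51, 3.85 and 3.31, while the HT115 wild type stood at 3.56 for lipl-3 and 3.53 for lipl-4. Among the RNAi arrays, ndub-7 had 3 (fil-1, fil-2 and lipl-2), against 10.3% of all genes, nduf-6 and nuo-5 had 2 each (fil-1 and fil-2), against 4.01% and 3.28%, and ndua-13 and ndab-1 had 1 each (fil-2), against 4.83% and 4.11%. At least 2-fold higher were lipl-3 in nduf-6 RNAi and lipl-4 in nuo-5 RNAi, with 2.89% and 4.05% of all genes. In the other arrays 0 of 7 members were that much higher, against 3.62% of all genes in gas-1, 4.27% in mev-1, 2.41% in isp-1, 5.27% in ndua-13 RNAi, 11.5% in ndub-7 RNAi and 5.68% in ndab-1 RNAi. Members below the K12 wild type in 3 of 3 missense mutants numbered 4 of 7 (fil-1, fil-2, lipl-2 and lipl-4), against 25.5% of all genes, and fil-2 alone was below the HT115 wild type in 5 of 5 RNAi arrays, against 18.3%.

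The fits across all 12641 genes used limma with Benjamini-Hochberg adjustment, at an adjusted p of 0.05. In the joint comparison, 8 mutants against 2 wild types with culture as a term, 0.0158% of genes passed, and of the 7 members fil-2 was among them, with a log2 difference of -2.02 (SE 0.22). In the other settings tried, fil-2 passed this comparison in 5 of 15. These settings include the fits that left out a wild type, which are the RNAi or the missense comparison itself. The 1 other gene to pass the joint comparison was mps-2, an accessory subunit of a potassium channel, at -0.81 (SE 0.08, limma adjusted p = 0.0361). In the comparison of RNAi animals with the HT115 wild type, 0.396% passed, fil-2 among them at -2.43 (SE 0.24). In the missense comparison 0.0316% passed, and of the members 0 did, with fil-2 alone under an unadjusted p of 0.05 (3.05% of all genes). The same held for the difference between the missense and RNAi responses, where 0.0475% of genes passed, 4.23% were under an unadjusted p of 0.05, and fil-2 was the member under it (difference 0.86, SE 0.35). Since these contrasts were known when the members were listed, the counts support nothing about them. For fil-1 the joint difference was -2.21 with an SE of 0.89, the widest of the 7. The other joint differences were 0.38 (SE 0.23) for lipl-1, -0.59 (SE 0.38) for lipl-2, -0.01 (SE 0.78) for lipl-3, -0.32 (SE 0.46) for lipl-4 and -0.40 (SE 0.24) for lipl-5. The median over the 7 was -0.40, with 6 of 7 negative, against a median of 0.00 and 50.5% positive over all genes.

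Markers of the intestine, where these lipases mainly act in C. elegans, differed in direction between arrays. Of 13 intestine markers measured, 12 were higher in RNAi animals, with a median difference of 0.49, and 6 were higher in missense mutants. The wild types themselves differed in these markers by a median of 0.36, K12 over HT115. In gas-1, which held the most lipases at least 2-fold below the wild type of its culture, 9 of 13 were lower (median -0.12). In contrast, 10 were higher in mev-1 and 7 in isp-1. Their summed level ranged over 16.05 to 16.41 (log2) in missense mutants, against 16.35 in the K12 wild type, and over 16.02 to 16.51 in RNAi animals, against 16.14 in the HT115 wild type. The 2 arrays lowest in this sum, nuo-5 RNAi (16.02) and gas-1 (16.05), were also low in fil-1 and lipl-2, whereas ndub-7 RNAi, the lowest in fil-1, stood at 16.30. The next lowest in the sum, the HT115 wild type (16.14), was among the higher arrays in fil-1 (7.88) and lipl-2 (11.10). In nuo-5 RNAi, however, 9 of 13 intestine markers were higher than in the HT115 wild type (median 0.23), although their sum was lower. The part of the intestine markers in the lipase values was not tested.

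Other genes of fat use were followed in 14 lists with 207 genes, of which 183 beside the 7 members were tested. By limma, 0 of these 183 passed in any of the 4 comparisons. Under an unadjusted p of 0.05 there were 9 in the joint comparison (4.92%, against 6.91% of all genes), 3 in the missense comparison (1.64%, against 3.05%), 9 in the RNAi comparison (4.92%, against 8.2%) and 4 in the response difference (2.19%, against 4.23%). The values below are therefore given as values that did not pass.

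Of the relatives of the members, lipl-6 and lipl-7 passed the filter, at 0.18 (SE 0.28) and 0.13 (SE 0.18) in the joint comparison. The level of lipl-6 was low, at 3.05 to 3.44 in 9 of 10 arrays, little above the filter, with ndub-7 RNAi alone higher, at 4.39. The lips genes, a family of lipase-related proteins, had 16 on the array and 13 past the filter, with a median of -0.10 and 4 positive. They were spread widely in the joint comparison, with lips-5 at 1.19 (SE 0.48) and lips-14 at -1.09 (SE 0.56), and only lips-15 above and lips-16 below these. By group, lips-15 was at 1.61 (SE 0.78) in missense mutants and 1.02 (SE 0.74) in RNAi animals, and lips-16 at -0.67 (SE 0.94) in missense mutants and -1.48 (SE 0.89) in RNAi animals. Their joint limma adjusted p-values were 0.671 and 0.801.

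The lipases of the lipid droplet surface stayed close to wild type. The adipose triglyceride lipase homologue atgl-1 stood at -0.09 (SE 0.16) and the hormone-sensitive lipase homologue hosl-1 at -0.18 (SE 0.16). Of the 5 genes of this list, 3 were positive, with a median of 0.03.

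Among 22 measured regulators, 16 were positive in the joint comparison, with a median of 0.06. The repressor mxl-3 stood at 0.50 (SE 0.22, limma adjusted p = 0.722) and the activator hlh-30 at 0.25 (SE 0.36), at -0.25 (SE 0.51) in missense mutants and 0.70 (SE 0.48) in RNAi animals. The wild types themselves differed in hlh-30, at 10.35 (K12) and 9.07 (HT115). Its level was 9.93 to 10.23 in missense mutants, under the K12 wild type but above the HT115 wild type. In RNAi animals hlh-30 stood at 8.80 to 10.37, so the signs of its group differences depended on the culture of the control. The TGF-beta ligand daf-7 was at 1.05 (SE 0.36) and sbp-1, the SREBP homologue, at 0.35 (SE 0.16). The wild types also differed in daf-7, at 5.9 (K12) and 4.6 (HT115), so the size of its difference depended on the control. Chosen after their values were seen, ire-1, hsp-4 and the IRE-1 target xbp-1 stood at 0.09 (SE 0.12), 0.15 (SE 0.13) and -0.03 (SE 0.15). Their limma adjusted p-values in the joint comparison were 0.974, 0.936 and 0.996.

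The list of other fasting-response genes had 9 of 11 negative, with a median of -0.13 in the joint comparison, -0.31 in missense mutants (10 of 11 negative) and 0.12 in RNAi animals (5 of 11 negative). Its best known member, the acyl-CoA synthetase acs-2, stood at -0.10 (SE 0.72), the desaturase fat-7 at -0.32 (SE 1.01), and the nuclear receptor nhr-49 at -0.13 (SE 0.14). The lipid-binding protein lbp-1 stood at -0.74 (SE 0.26) in the joint comparison and at -1.25 (SE 0.28) in RNAi animals, with a limma adjusted p of 0.192. Of 9 lipid-binding protein genes 4 were positive, with a median of -0.05, and the lysosomal lipid chaperone lbp-8 stood at 0.09 (SE 0.11), with levels of 2.67 to 3.03, close to the filter. Of the acyl-CoA synthetases, which activate released fatty acids, 9 of 19 were positive, from -0.77 (SE 0.24) for acs-3 to 0.73 (SE 0.31) for acs-21.

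Where released fat can go next, 10 of 11 genes of peroxisomal oxidation were positive, with a median of 0.20, and 9 of 16 genes of triglyceride synthesis were positive, with a median of 0.08. In the synthesis list dgat-2, a diacylglycerol acyltransferase, stood at 0.81 (SE 0.27, limma adjusted p = 0.624). The fatty acid ethanolamide enzymes had 4 of 6 positive, with a median of 0.12. The yolk genes and their receptor had 2 of 6 positive, with a median of -0.08.

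The lysosome itself showed no common direction: of 26 genes for its membrane and hydrolases 12 were positive, with a median of -0.02, and of 19 subunits of the proton pump V-ATPase 12 were positive, with a median of 0.04. The lysosomal nuclease nuc-1 stood at -0.72 (SE 0.32) and the cathepsin cpl-1 at -0.25 (SE 0.12). Of 23 autophagy genes 20 were negative, with a median of -0.17, while 50.5% of all genes were positive. In missense mutants 15 of 23 were negative and in RNAi animals 18 of 23. By array their median difference lay between -0.64 (ndub-7 RNAi) and 0.01 (nduf-6 RNAi). The lowest in the joint comparison were epg-2 at -0.65 (SE 0.37), atg-4.2 at -0.52 (SE 0.24) and lgg-1, the Atg8 homologue, at -0.50 (SE 0.22).

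**Figure D4:**
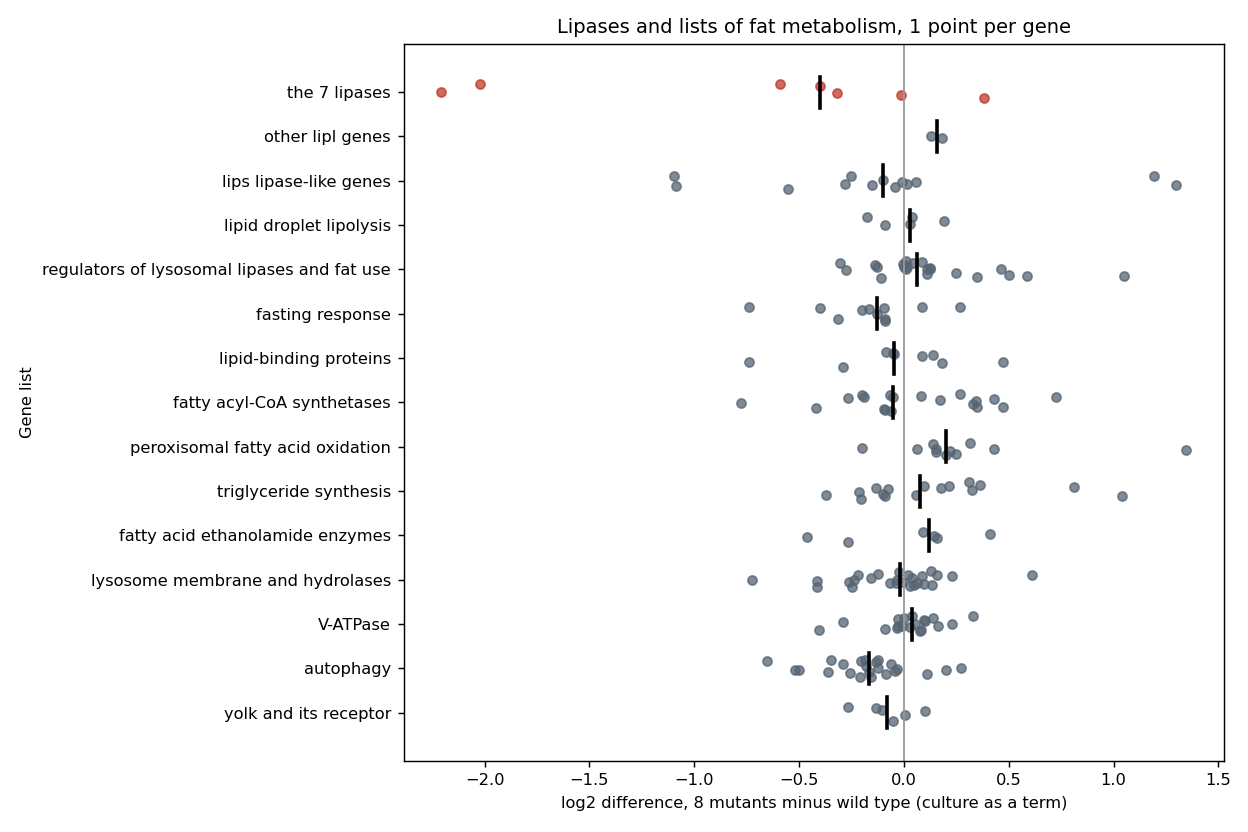
Log2 difference between the 8 mutants and the wild types (x axis, culture as a term in the fit) for each tested gene of the 7 lipases and of 14 lists of fat metabolism (rows). There is 1 point per gene, with vertical scatter added for legibility, and black bars are medians. The lipases fil-1 and fil-2 lie at -2.21 and -2.02, below every listed gene, and 0 of the 183 other genes passed the limma test.

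For each member, the 3 genes with the most similar pattern were sought among 9405 genes, by Pearson's r over the 10 arrays. Those of fil-1 were madd-2, a tripartite motif protein of axon and muscle arm guidance (0.93), F13D11.3 (0.92) and Y67D8C.9 (0.91), and over the 8 mutants alone they kept an r between 0.88 and 0.96. The probe set of madd-2, of a type that can bind related transcripts, spanned only 8.27 to 8.85 (log2), a far smaller range than that of fil-1. Those of fil-2 were pro-3 (0.97), mps-2 (0.96) and hex-5, a hexosaminidase (0.95), and over the 8 mutants r was 0.49, 0.58 and 0.72, so these values rest largely on the 2 wild types.

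Nearest to lipl-1 were let-767 (0.92), a steroid dehydrogenase needed for fatty acid synthesis, dgat-2 (0.92) and the UDP-glucuronosyltransferase ugt-44 (0.90). The level of dgat-2 was 7.64, 8.48 and 8.06 in gas-1, mev-1 and isp-1, against 7.30 in the K12 wild type. It was 7.59, 7.67, 8.25, 8.31 and 7.65 in the arrays labelled ndua-13, nduf-6, nuo-5, ndub-7 and ndab-1 RNAi, against 7.03 in the HT115 wild type. Both genes were highest in mev-1 and lowest in the HT115 wild type.

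Nearest to lipl-2 were C09F5.1 (0.89), the saposin-like gene spp-8 (0.88) and the nuclear hormone receptor nhr-32 (0.88). Nearest to lipl-3 were rme-6 (0.89), pygo-1 (0.87) and H14E04.2 (0.87), and without the 2 arrays farthest from the median of lipl-3 the first 2 had an r of 0.50 and 0.47. Nearest to lipl-4 were rheb-1 (0.88), C17H11.2 (0.87) and M01F1.4 (0.86), with an r of 0.43, 0.66 and 0.40 without the 2 farthest arrays. Nearest to lipl-5 were C03A3.1, T22C8.3 and lrpr-1, each at 0.86. With 9405 candidates over 10 arrays, high values of r occur for any gene, and these are a description.

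The genes next to the members on the chromosome, in the order of the WBcel235 assembly, held no other member. Of the 14 neighbours, 7 passed the level filter. The joint difference was -0.57 for F31F7.1 beside fil-2 and -0.13 for T01C3.3 beside fil-1, and the others lay between -0.10 and 0.22.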

How the data were processed

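The authors deposited log2 values for 22625 probe sets on 10 arrays, read as log2 from their range (1.43 to 16.01); their summarisation and normalization are not given in the sources used here. Array medians spanned 0.13, above the limit of 0.1, so values were quantile normalised without 77 control probe sets. Symbols came from the platform annotation, updated by Entrez identifier through RefSeq (20701 of 20766 probe sets with 1 symbol matched); 887 with several symbols and 895 with none were left out. Probe sets with a mean under 2.60 were left out, and the highest-mean probe set stood for a gene.

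Fits used limma 3.58.1 in R 4.3.3 with a mean-variance trend, two-sided, over 12641 genes, and were tested on simulated data. The joint fit had terms for culture and mutant (7 residual degrees of freedom), the others 4 groups (6). With 1 array per wild type, its spread was taken to equal that of the mutant groups, and the spread between different mutants served as error. Members and lists were chosen with earlier results of these data known. Genes beside the members were named by rule: up to 4 per list by smallest p, and the 3 most similar to each member. For their known roles hlh-30, acs-2 and fat-7 were named outside this rule, and ire-1, hsp-4 and xbp-1 were added after their values were seen. The number of arrays limits precision.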

Additional observations from a re-analysis of the deposited data

Results flagged for a closer look

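Among the 5 RNAi arrays, 2 values lay farther from their nearest neighbour, relative to the range of the group, than Dixon's 95% critical value of 0.71. The level of lipl-3 in the array labelled nduf-6 RNAi was 6.47 (log2), with the next at 3.95 and a gap of 0.83 of the range. The level of lipl-4 in the array labelled nuo-5 RNAi was 5.07, with the next at 3.70 and a gap of 0.84 of the range. Among replicates of 1 population chance gives such a value in about 1 in 20 groups, and 7 genes were examined. These 5 arrays had different RNAi targets, so that rate does not apply to them and the values are a description. Both genes are low on the array scale, and each value is a single array of pooled RNA with no repeat.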

How the results depend on the processing

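No paired analysis was possible because the groups share no replicate numbers that pair arrays. The numbers of genes past the threshold depended on the settings. In the joint comparison 2 genes passed, and 4 did with values as deposited, 12 with no filter, and 0 with arrays centred on their medians, with the filter at the median level, with the mean over probe sets or with no trend (874 at an unadjusted p of 0.05 in the main setting). In the missense comparison 4 passed, and 2 did with centred arrays, 98 with no filter and 1 with the filter at the median level. In the RNAi comparison 50 passed, and 305 did with no filter and 0 with the filter at the median level, which removes fil-2, lipl-3 and lipl-4 (1036 genes in the main setting at an unadjusted p of 0.05). In the response difference 6 passed, and 251 did with no filter, 1 with the filter at the median level and 3 with no trend. Leaving out 1 array at a time gave 0 to 50 genes in the joint, 1 to 10 in the missense, 33 to 69 in the RNAi comparison and 4 to 9 in the response difference. Without the K12 wild type the joint fit became the RNAi comparison, and without the HT115 wild type the missense comparison. Those fits were therefore no check of the joint count, and the upper end of its range is the RNAi count. The joint count was 5 without mev-1, 7 without the array labelled ndab-1 RNAi and 1 without isp-1 or nduf-6 RNAi. It was 0 without gas-1 or the arrays labelled ndub-7, nuo-5 or ndua-13 RNAi. The missense count was 9 without mev-1, 1 without nuo-5 RNAi and 10 without gas-1, and the RNAi count was 33 without ndua-13 RNAi. Of the members, fil-2 passed in 14 of 14 other settings of the RNAi comparison that held it, and in 5 of 15 of the joint one. Those 15 include the fits that left out a wild type. The gene fil-2 was listed with these results known and passed the level filter through the wild types, so these counts support nothing about it.

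Of the members' differences, those that moved by more than 1 SD did so with a change of control. Leaving out 1 array put the joint difference of fil-2 between -2.43 and -1.57, and that of lipl-4 between -1.07 and 0.36. These ends are the RNAi and missense differences themselves, since leaving out a wild type removes its culture from the joint difference. Against the other culture's wild type, chosen after seeing the data, fil-2 stood at -2.67 (missense) and -1.33 (RNAi), lipl-3 at 0.56 (missense) and -0.66 (RNAi, a turn of sign within its SD), and lipl-4 at 0.22 (missense) and -0.93 (RNAi). The cause was not tested; the wild types themselves differed in these genes.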
